A study of Mus musculus with 26 samples.

Results

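The 38 genes described here build or regulate epithelial cell contacts. They comprise 4 keratins (Krt7, Krt8, Krt18, Krt19), 9 tight junction genes (Cldn3, Cldn4, Cldn6, Cldn7, Ocln, Marveld2, Marveld3, Tjp3, F11r) and 2 adhesion genes (Epcam, Cdh1). A further 8 belong to desmosomes and keratin-linking plaques (Dsp, Pkp2, Pkp3, Jup, Dsg2, Dsc2, Ppl, Evpl) and 2 to the basal anchor (Itgb4, Lad1). The rest are 5 regulators (Grhl2, Grhl3, Esrp1, Esrp2, Elf3), 4 membrane proteases or inhibitors (St14, Prss8, Spint1, Spint2) and 4 genes of polarity and membrane sorting (Crb3, Llgl2, Rab25, Ap1m2). Members were matched by gene symbol, and all 38 were found among the 55141 genes of the deposited count table. All 38 passed the filter on low counts (minimum count of 10), as did 17769 genes in all.

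The data are polyadenylated RNA of mouse gastruloids, aggregates of embryonic stem cells that lengthen in culture and form derivatives of the 3 germ layers. The 26 libraries fall into 15 combinations of line and time since aggregation, of which 8 have a single library. The labels sort the libraries as ISML_first, ISML_second, ISML_third and TruSeq_second, where ISML and TruSeq are Illumina library kits. All 8 lines share the allele HoxB Del/Del(i9-13), and Del is the line that carries nothing else (3 libraries at 120 h, 1 at 144 h). Ins also carries Ins(CBS5-10) (3 at 120 h, 1 at 144 h). InsDel5to10, InsDel7to10 and InsDel8to10 carry Ins(CBS5-10) with Del(CBS5-10) (2 at 120 h), Del(CBS7-10) (2 at 120 h) or Del(CBS8-10) (1 at 120 h, 1 at 144 h). InvClone1 and InvClone2 are 2 clones with Ins(CBS5-10) and Inv(CBS5-10). InvClone1 has 1 library at 96 h, 4 at 120 h, 2 at 144 h and 1 at 168 h, and InvClone2 has 2 at 120 h. InvDel7to10 carries Ins(CBS5-10), Inv(CBS5-10) and Del(CBS7-10) (1 at 120 h, 1 at 144 h). Each genotype is represented by 1 line, the inversion by 2 clones, and no line without the HoxB deletion was analysed here. The labels do not say whether replicates are separate cultures. The p-values therefore rest on the variation among these libraries, and that variation could be technical.

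Epithelial cells are held together near their apex by tight junctions, in which claudins and occludin seal the space between cells, and by adherens junctions built on E-cadherin (Cdh1). Desmosomes tie the keratin filaments of neighbouring cells together, and Krt8 and Krt18 pair to form the first keratin filaments of the embryo. Grainyhead-like factors such as Grhl2 activate junction genes, Esrp1 and Esrp2 drive epithelial splicing, and factors of the Zeb and Snail families repress many epithelial genes by binding the E-box CAGGTG. In gastruloids, epithelial cells are found chiefly in the endoderm-like and neural tube-like parts. In bulk libraries such as these, fewer cells of a type and less RNA per cell cannot be told apart.

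Promoters are shown because many of the genes moved together across libraries. The RefSeq promoter table (GRCm38.p6) held 27 promoters of 22 of the 38 genes. The E-box CAGGTG (searched on both strands, so also as CACCTG, in the 250 bases before the start) was looked for after the sequences had been seen. It was present for 16 of the 22 genes (72.7%), against 5252 of 27025 genes (19.4%) in the whole table. By promoter, 18 of 27 held it, against 17.2% of all 32851 promoters. GC content was higher in the members' promoters (median 60.0%) than in all promoters (52.4%). Among all promoters with a GC content between the members' quartiles (56.8% and 63.6%), 21.5% held CAGGTG. More than 1 copy in a promoter was found for 7 of the 22 genes (31.8%), against 2.39% of all genes. Of other E-boxes, CAGCTG was in 1 of the 27 promoters (13.0% of all) and CACGTG in 1 (6.02% of all). The Grainyhead-type motif AACCNGTT was in 1 of 27 (1.79% of all), its shorter form CCGGTT in 4 (5.62% of all), the forkhead motif TGTTTAC in 0 (3.17% of all) and TATAAA in 2 (12.4% of all). Such matches are a description of letters and no evidence of binding.

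The 7 stretches below come from members whose levels followed one another closely. Each holds the CAGGTG box nearest to the start, with 10 bases on either side, printed 5′ to 3′ on the strand of the gene with the box in capitals. The stretches of Krt7, Cldn6, Cldn7 and Crb3 and part of that of Ap1m2 lie within the gene as the deposited table places it. Every box lies before a start that RefSeq gives, and the bases after the boxes of Crb3 and Ap1m2 run past that start. The positions are chr15:101412349-101412374 (plus strand) for Krt7, chr15:102027992-102028017 (plus) for Krt18, chr17:23679262-23679287 (plus) for Cldn6, chr11:69965354-69965379 (plus) for Cldn7, chr17:57062184-57062209 (plus) for Crb3, chr9:21312327-21312352 (minus) for Ap1m2 and chr3:88548317-88548342 (minus) for Rab25.
Krt7: gccctgtcccCACCTGtgtgcgctca
Krt18: gggctaacacCACCTGctatcctttg
Cldn6: gaaacgcacgCAGGTGgctatcgccg
Cldn7: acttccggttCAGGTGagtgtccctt
Crb3: cagccaggctCAGGTGcacaagccgg
Ap1m2: cctggcggctCACCTGggcgaaggcg
Rab25: acctgtgcccCAGGTGcccagcggag

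The whole 250 bases before the start are shown for 3 members that followed the others (Epcam, Cldn4 and Spint2) and for Grhl3, which ran against them. Apart from the last base of the Epcam window, they lie outside the genes as the deposited table places them. They are chr17:87635729-87635978 (plus strand) for Epcam, chr5:134946935-134947184 (minus) for Cldn4, chr7:29281978-29282227 (minus) for Spint2 and chr4:135573633-135573882 (minus) for Grhl3, with every CAGGTG or CACCTG in capitals.
Epcam: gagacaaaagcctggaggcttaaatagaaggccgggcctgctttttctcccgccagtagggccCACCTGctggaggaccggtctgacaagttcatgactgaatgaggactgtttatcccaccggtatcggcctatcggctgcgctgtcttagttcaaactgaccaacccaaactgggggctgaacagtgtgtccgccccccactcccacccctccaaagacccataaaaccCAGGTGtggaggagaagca
Cldn4: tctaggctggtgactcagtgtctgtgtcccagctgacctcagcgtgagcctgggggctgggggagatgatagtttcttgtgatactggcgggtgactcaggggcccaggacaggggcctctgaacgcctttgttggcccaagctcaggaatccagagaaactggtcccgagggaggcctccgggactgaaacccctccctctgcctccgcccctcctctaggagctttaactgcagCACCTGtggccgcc
Spint2: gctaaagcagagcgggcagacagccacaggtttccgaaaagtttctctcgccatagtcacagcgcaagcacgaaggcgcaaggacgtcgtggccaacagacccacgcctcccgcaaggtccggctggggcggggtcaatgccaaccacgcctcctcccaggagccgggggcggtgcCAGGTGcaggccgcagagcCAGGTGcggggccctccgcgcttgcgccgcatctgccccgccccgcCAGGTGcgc
Grhl3: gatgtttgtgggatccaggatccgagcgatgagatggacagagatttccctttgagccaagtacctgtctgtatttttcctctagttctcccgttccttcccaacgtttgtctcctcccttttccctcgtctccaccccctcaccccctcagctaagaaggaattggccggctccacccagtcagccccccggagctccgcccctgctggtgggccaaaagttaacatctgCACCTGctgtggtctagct

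The box lies 19 bases before the start of Epcam and again 187 bases before it, 14 bases before that of Cldn4, 74, 55 and 9 bases before that of Spint2, and 19 bases before that of Grhl3. Grhl3 thus has the box although its levels ran opposite to those of the other 3.

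Library totals ran from 18746411 to 37716547 counts, and a count of 0 allows up to 3 counts, or 0.0778 to 0.165 CPM (counts scaled to a common library size). In InvClone1, 3 libraries stood apart. Mitochondrial genes took 0.0864% of the reads of replicate 2 at 144 h, and 0.587% to 1.51% elsewhere. Replicate 2 at 120 h (TruSeq_second) detected 54.8% of genes, beside 37.5% to 43.4% in the rest. Replicate 1 at 120 h had the lowest median Pearson's r with the other libraries of that stage across genes, 0.9643 beside 0.9736 to 0.9817. The tissue label was checked against marker genes. The somitic gene Meox1 was at 101 to 770 CPM, the neural gene Sox2 at 12.9 to 266 CPM, the posterior gene Cdx2 at 16.1 to 166 CPM and T (brachyury) at 9.22 to 162 CPM across the 26 libraries. Of the surface ectoderm markers, Krt5 (at most 0.338 CPM), Krt14 (0.11) and Trp63 (1.44) were near 0 in every library, whereas Krt15 reached 11.3 CPM in InvClone1 144 h replicate 2 and Perp 4.87 CPM.

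Levels of different members were compared in FPKM, the authors' values per transcript length. The 5 members with the highest mean over 26 libraries were F11r (23.8 FPKM), Cldn6 (20.2), Spint2 (14.5), Krt18 (11.6) and Dsp (11.4). The 5 with the lowest were Itgb4 (0.0638 FPKM), Pkp3 (0.1001), Evpl (0.156), Marveld3 (0.260) and Ppl (0.284). F11r encodes the junctional adhesion molecule JAM-A, Cldn6 an embryonic claudin, and Dsp the desmosomal plaque protein desmoplakin. Itgb4, the hemidesmosomal integrin chain, and Pkp3, a plakophilin, had at most 31 counts in any library, whereas the plakin genes Evpl and Ppl reached 117 and 161 counts. The members also differed in their range. Pkp2 spanned 12.3 to 33.1 CPM over all libraries and Spint2 14.96 to 43.8 CPM, whereas Krt8 spanned 1.29 to 100.3 CPM and Cldn6 0.810 to 78.6 CPM.

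Most members rose and fell together from library to library. For each member, Pearson's r was computed between its log2 CPM and the median, over the other members, of their centred log2 CPM. The median r over the 38 members was 0.85 (Spearman's rho 0.85) across 26 libraries. An r over 0.8 was found for 22 members (57.9%), against 1.68% of the other 17731 genes, and an r over 0.5 for 32 members (84.2%), against 16.7%. The libraries share lines, stages and preparations, so these coefficients describe the data set and carry no p-value. Of the 703 pairs of members, 65.9% had an r over 0.5 and 19.1% an r under 0.

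**Figure D1:**
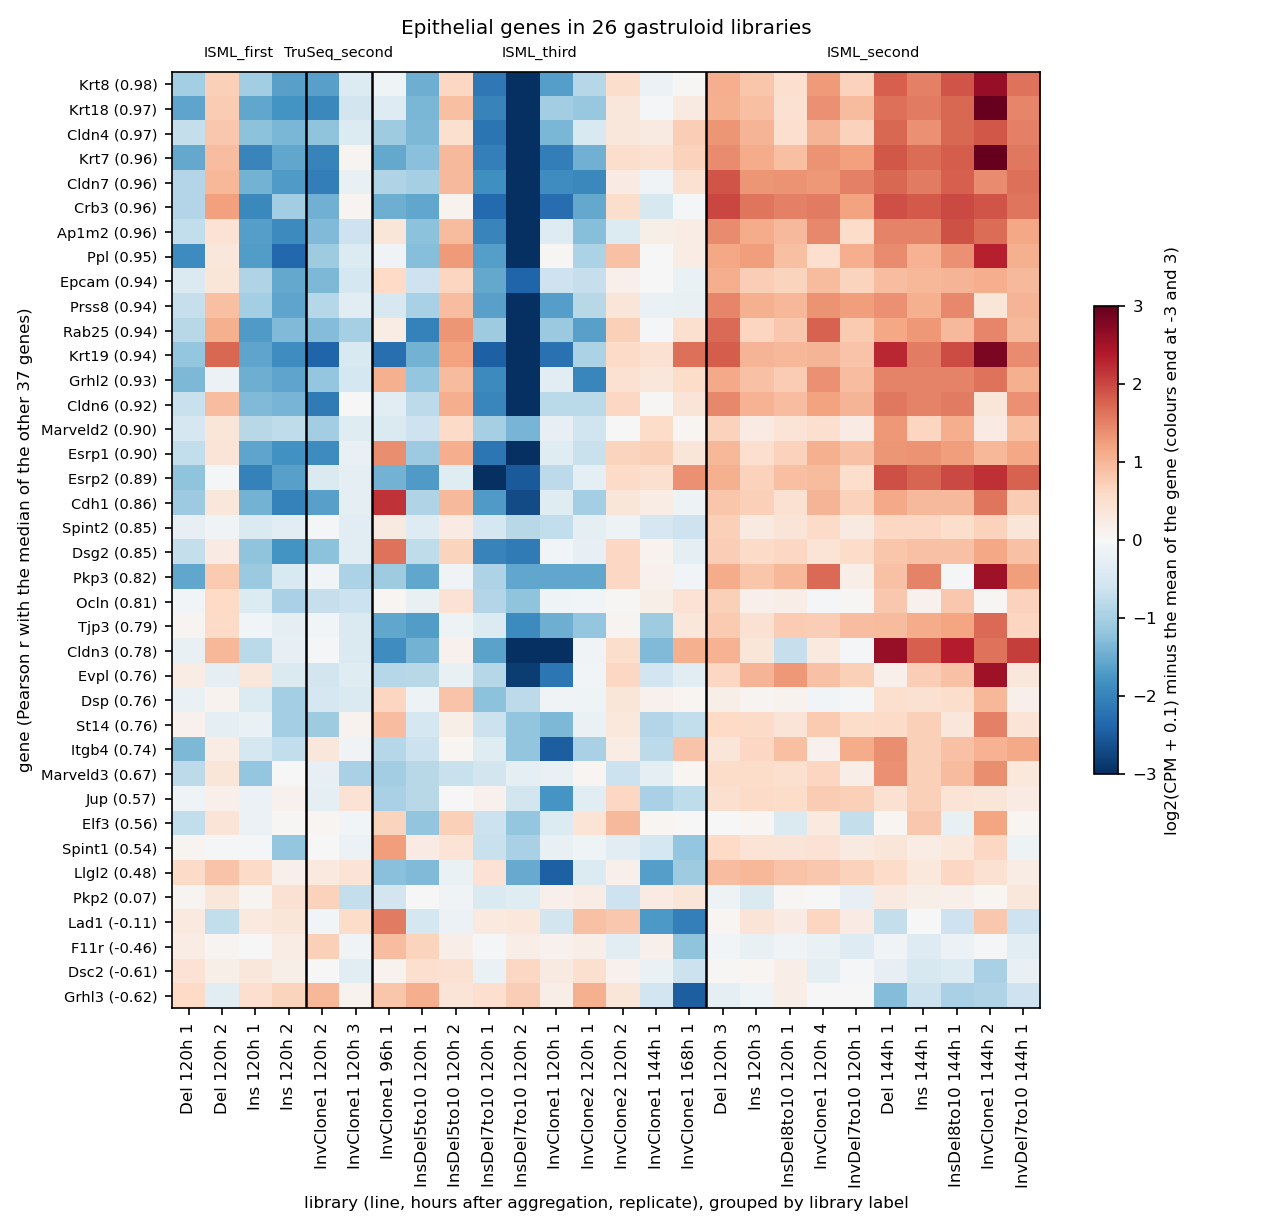
Each row is 1 of the 38 genes, ordered by Pearson's r with the median of the other 37 genes (given beside the symbol), and each column 1 of the 26 libraries, grouped by library label. The colour is log2(CPM + 0.1) minus the mean of the gene, with the scale ended at -3 and 3. The ISML_second block is red for most rows, InsDel7to10 replicate 2 is the darkest blue column, and Grhl3, Dsc2 and F11r at the bottom run the other way.

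By role, the keratins had r from 0.94 to 0.98 and the adhesion genes 0.86 and 0.94. The tight junction genes spanned -0.46 to 0.97 (median 0.81), the desmosomal genes -0.61 to 0.95 (median 0.76), the regulators -0.62 to 0.93 (median 0.89), the proteases and inhibitors 0.54 to 0.94 (median 0.80) and the polarity and sorting genes 0.48 to 0.96 (median 0.95). Of the basal anchor genes, Itgb4 was at 0.74 and Lad1 at -0.11. The roles with a wide range were thus those that hold a member running the other way or following weakly.

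Krt8 and Krt18 led with r = 0.98 and 0.97, followed by Cldn4 (0.97), Krt7 (0.96) and Cldn7 (0.96). The keratin partners Krt8 (chr15:101996697-102004482, mm10) and Krt18 (chr15:102028179-102032027) lie 23.7 kb apart and had r = 0.98 with each other. Other neighbours also moved together, Cldn3 with Cldn4 (39.3 kb apart, r = 0.86) and Ocln with Marveld2, which encodes tricellulin (43.2 kb apart, r = 0.89). Desmosomal cadherins did not: Dsg2 and Dsc2, 499 kb apart, had r = -0.40. Among the pairs with the highest r were also members on different chromosomes, such as Epcam on chromosome 17 and Ap1m2 on chromosome 9 (r = 0.97). The part of distance on the chromosome was not tested. Ap1m2 encodes a subunit of the adaptor complex that sorts proteins to the basolateral membrane.

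The score, the median of the centred members, was highest in InvClone1 144 h replicate 2 (1.31 on the log2 scale) and lowest in InsDel7to10 replicate 2 (-2.27). All 10 ISML_second libraries held the 10 highest scores, 0.59 to 0.87 at 120 h and 0.94 to 1.31 at 144 h. At 120 h the scores were -1.03 to 0.37 in the 4 ISML_first libraries, -2.27 to 0.48 in the 7 ISML_third libraries, and -0.77 and -0.33 in the TruSeq_second libraries. Replicates of 1 line and stage differed by 0.90 to 1.69 on this scale.

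Agreement among the members was also present when label and stage were set aside. In deviations from the mean of each label and stage (23 libraries) the median r was 0.80, with 19 members over 0.8 against 0.806% of other genes. Deviations from the mean of each group (18 libraries), which set aside line and stage but not label, gave a median r of 0.84. There 22 members were over 0.8 against 4.97% of other genes. Within single labels the median r was 0.82 over the 10 ISML_third libraries and 0.63 over the 10 ISML_second libraries. In ISML_second 21 members had an r over 0.5, and Prss8 (-0.35), Cldn6 (-0.10) and Jup (-0.38), all over 0.5 across the 26 libraries, were negative there. In ISML_third 28 members were over 0.5, and Marveld3, at 0.67 across all libraries, was at -0.15. Without the 2 libraries farthest from the median score, both of InsDel7to10, the median r of the members was 0.80.

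Krt8 serves as an example of the spread between replicates. In Del at 120 h it was at 7.98, 26.5 and 34.4 CPM, in Ins at 7.76, 5.17 and 29.1 CPM, and in InvClone1 at 5.13, 5.21, 12.2 and 39.4 CPM. The last value of each of these groups is the ISML_second library. In pairs of ISML_third libraries, Krt8 was at 5.80 and 24.8 CPM in InsDel5to10, 3.57 and 1.29 CPM in InsDel7to10, and 8.92 and 23.2 CPM in InvClone2, so replicates that share line, stage and label also differed. Over the 38 members, the highest Ins replicate at 120 h exceeded the lowest by 1.07 times (Lad1) to 17.0 times (Ppl).

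The 8 members with the lowest r were of 3 kinds. Grhl3 (r = -0.62), Dsc2 (-0.61) and F11r (-0.46) ran against the others. Lad1 (-0.11) and Pkp2 (0.07) were unrelated to them, and Llgl2 (0.48), Spint1 (0.54) and Elf3 (0.56) followed weakly. Grhl3 encodes a grainyhead-like factor of surface ectoderm and of posterior neural tube closure, Dsc2 a desmosomal cadherin, Lad1 the anchoring protein ladinin, Pkp2 a plakophilin, Llgl2 a basolateral polarity protein, Spint1 a protease inhibitor, and Elf3 an epithelial ETS factor.

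Grhl3 at 120 h was at 24.5, 12.9 and 13.2 CPM in Del and 23.1, 25.6 and 14.7 CPM in Ins, so its low libraries were among those with high Krt8. Over 120 h, ISML_second libraries held 13.2 to 18.6 CPM and the other 13 libraries 12.9 to 34.3 CPM, ranges that overlap. With its paralog Grhl2, which followed the others at r = 0.93, Grhl3 had r = -0.60. Its lowest pairwise value was with Krt19 (-0.73). Deviations from group means, where a group can mix labels, kept Grhl3 at -0.82, Dsc2 at -0.74 and F11r at -0.76. There Pkp2 stood at -0.50 and Lad1 at 0.46, while Llgl2 rose to 0.68, Spint1 to 0.70 and Elf3 to 0.75. In deviations from the mean of each label and stage, Grhl3 was weaker at -0.49, Dsc2 at -0.23 and F11r at -0.25. By that measure Pkp2 was at -0.12, Lad1 at -0.07, Llgl2 at 0.44, Spint1 at 0.60 and Elf3 at 0.69. Of Grhl3, Dsc2 and F11r, only F11r changed sign within a label, with r = 0.41 in ISML_second and -0.25 in ISML_third.

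The E-box was present for 12 of the 13 members with a promoter in the table and an r over 0.8, the exception being Marveld2, and for 4 of the 9 with a lower r (Grhl3, F11r, Elf3 and Tjp3). Of the 5 members with a promoter among the 8 that followed least, 3 held it, among them Grhl3 and F11r, which ran against the rest. The difference was not tested.

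Beyond the 38, the genes with a mean of at least 1 CPM most like the score were Kcnk16, a potassium channel (r = 0.96 over 26 libraries), Adcy8 (0.96), Mapk13 (0.96), Atp2c2 (0.96), Clic6 (0.95), Foxa2 (0.95), Foxa1 (0.95), Ppp1r13b (0.95), Gli1 (0.95) and Fhl2 (0.94). Foxa1 and Foxa2 are forkhead factors of endoderm, notochord and floor plate. Of 50 further epithelial genes, 41 passed the filter, with a median r of 0.52. Arhgef16 and Lamb3 (both 0.92) were among the highest, while the catenins Ctnnb1 (-0.80) and Ctnnd1 (-0.60) and the polarity gene Pals1, named Mpp5 in the table (-0.58), ran opposite. The same measure had a median of 0.80 over 16 endoderm markers, 0.80 over 5 endothelial markers, 0.74 over 6 notochord and node markers and 0.58 over 7 nephric markers. It was 0.49 over 7 surface ectoderm markers, 0.38 over 6 neural tube markers, 0.20 over 9 pluripotent and germ cell markers and 0.20 over 10 mesenchyme markers. The mesenchyme markers spanned -0.63 (Cdh2, N-cadherin) to 0.54 (Twist1). Among them, the Zeb and Snail genes were at 0.20 (Zeb1), -0.39 (Zeb2), 0.20 (Snai1) and 0.45 (Snai2). The median was -0.16 over 8 presomitic and somitic markers, and the value 0.20 for the 1 trophoblast marker that passed the filter. The score had r = 0.85 with the log2 summed level of the surface ectoderm markers and 0.84 with that of the endothelial markers. With the other summed lists r was lower, at 0.20 for endoderm, 0.04 for notochord and node, 0.34 for nephric, 0.35 for neural tube, 0.27 for pluripotent, 0.08 for mesenchyme, 0.30 for trophoblast and -0.29 for presomitic and somitic markers. For the summed level of the 50 further epithelial genes it was lowest, at -0.48. A summed level follows its most abundant genes. In the endoderm list that was Cdx2 (median 119 CPM, r = -0.24 with the score), in the notochord and node list T (51.6 CPM, r = -0.25). Among the further epithelial genes it was Ctnnb1 (1552 CPM, r = -0.80). Taken singly, 11 of 16 endoderm markers and 4 of 6 notochord and node markers had an r over 0.5. The part of these cell types in the pattern was not tested.

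In the 5 lines with ISML_second libraries at both stages, keratins and several junction genes were higher at 144 h than at 120 h. edgeR's quasi-likelihood test (line and stage as terms, Benjamini-Hochberg adjustment over 15011 genes) called 11 members higher and 3 lower, where 15.2% of all genes tested were called, 9.25% higher and 5.94% lower. An unadjusted p under 0.05 was found for 21 members, beside 28.7% of all genes. The median log2 fold change of the 38 members was 0.38, beside -0.01 for all genes. The direction was higher in 5 of 5 lines for 15 members and lower in 5 of 5 for 3. Such a count was not made over all genes, so it cannot be read as a trait of the members. DESeq2 called 16 members and 2544 genes, and edgeR 2280 genes.

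All 4 keratins were called higher. Krt8 was at 34.4, 29.1, 23.1, 39.4 and 26.1 CPM at 120 h in Del, Ins, InsDel8to10, InvClone1 and InvDel7to10, and at 56.7, 46.7, 60.1, 100.3 and 50.4 CPM at 144 h. The stages did not overlap, and the log2 fold change was 1.04 ± 0.13 (SE, 5 lines; edgeR, adjusted p = 0.00124). Krt18 went from 32.4, 28.8, 21.0, 39.6 and 29.5 CPM to 48.3, 45.5, 50.6, 137 and 42.4 CPM, again without overlap (0.99 ± 0.19, edgeR, adjusted p = 0.0115). InvClone1 was the highest of the 5 lines at both stages for both genes. Krt7 (0.89 ± 0.24, edgeR, adjusted p = 0.0443) went from 6.13 to 8.90 CPM over the lines at 120 h to 9.99 to 33.8 CPM at 144 h. Krt19 (0.88 ± 0.21, edgeR, adjusted p = 0.0242) rose in each line, from 10.6 to 20.9 CPM at 120 h to 15.7 to 42.0 CPM at 144 h, ranges that overlap because Del was already at 20.9 CPM at 120 h.

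Of the 9 tight junction genes, 2 claudins were called. Cldn3 was at 1.55, 0.938, 0.400, 0.888 and 0.665 CPM at 120 h in the same order of lines and at 4.78, 2.66, 4.01, 2.39 and 3.27 CPM at 144 h. No value at 120 h reached those at 144 h, and the change of 1.98 ± 0.28 was the largest among the 38 members (edgeR, adjusted p = 0.00245). Cldn4 moved from 23.6, 19.05, 13.4, 18.997 and 15.2 CPM to 31.2, 24.1, 30.8, 34.5 and 26.8 CPM. The stages did not overlap. Its change was 0.74 ± 0.13 (edgeR, adjusted p = 0.00806). Cldn6 was not called (0.17 ± 0.19, edgeR, adjusted p = 0.576), with 71.7, 54.2, 50.4, 60.6 and 53.5 CPM at 120 h and 78.6, 73.9, 77.2, 34.1 and 68.5 CPM at 144 h. InvClone1 was the only line in which Cldn6 was lower at 144 h.

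The splicing regulator Esrp2 went from 1.52 to 2.25 CPM at 120 h to 3.68 to 5.05 CPM at 144 h (1.16 ± 0.14, edgeR, adjusted p = 0.00128). Its paralog Esrp1 was at 13.4 to 19.8 CPM and then at 18.999 to 24.1 CPM, with a change of 0.41 ± 0.13 that missed the threshold (edgeR, adjusted p = 0.0711). Grhl2 was called at 0.45 ± 0.13 (edgeR, adjusted p = 0.0492). Among adhesion genes Cdh1 was called (0.36 ± 0.09, edgeR, adjusted p = 0.0289) and Epcam was not (0.20 ± 0.09, edgeR, adjusted p = 0.188). Of the desmosomal genes, the plaque genes Dsp (0.49 ± 0.13, edgeR, adjusted p = 0.0371) and Pkp2 (0.39 ± 0.11, edgeR, adjusted p = 0.0435) were called higher. No protease or inhibitor was called.

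The 3 members called lower were 3 of those that did not follow the rest. Grhl3 was at 13.2, 14.7, 18.6, 16.1 and 16.1 CPM at 120 h and at 6.52, 10.3, 8.12, 8.54 and 10.4 CPM at 144 h in the same lines. The stages did not overlap, and the change was -0.83 ± 0.12 (edgeR, adjusted p = 0.00313). Dsc2 (-0.44 ± 0.10, edgeR, adjusted p = 0.0225) and Llgl2 (-0.40 ± 0.08, edgeR, adjusted p = 0.0155) fell in each line.

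**Figure D2:**
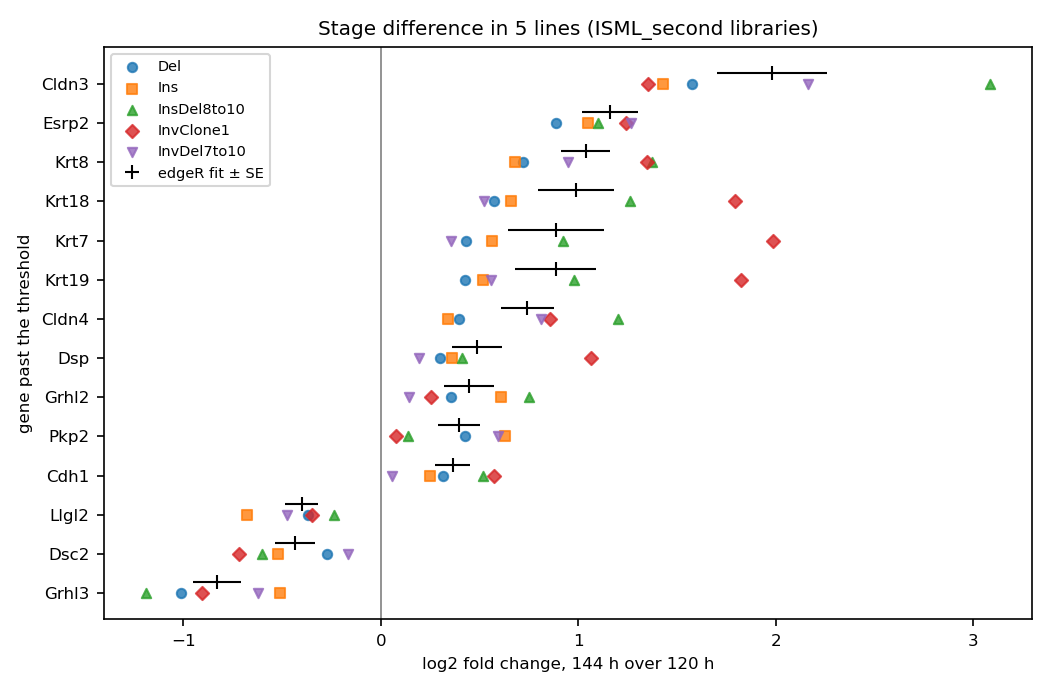
Points give the log2 fold change of 144 h over 120 h in each of the 5 lines (1 ISML_second library per line and stage) for the 14 members past the threshold, and the black bars the edgeR estimate ± SE. All 5 points lie on the same side of 0 for each gene, and InvClone1 has the highest value for Krt7, Krt18, Krt19 and Dsp.

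Calls at this stage step depended on the lines. Without Del, Ins, InsDel8to10 or InvDel7to10, 7, 6, 6 and 8 members were called, among 1366, 1632, 1365 and 1413 genes. Without InvClone1, whose 144 h library is the one low in mitochondrial counts, 20 members were called among 4831 genes. Krt8, Esrp2, Cldn3, Cldn4 and Grhl3 kept their calls whichever line was left out, whereas Dsp, Pkp2 and Grhl2 lost theirs without any 1 of the 4 other lines. Of the other epithelial genes, 6 of 37 tested rose and 0 fell, among them Krt20 (2.83 ± 0.20, edgeR, adjusted p = 0.000117), Cdh3 (1.201), Myo5b (1.09), Macc1 (1.60) and Lamb3 (0.82). Markers of other cell types changed as well, with 5 of 6 neural tube markers higher, 7 of 8 presomitic and somitic markers lower, and 5 of 14 endoderm markers higher and 4 lower. Nephric markers were 2 of 6 lower, mesenchyme markers 2 of 10 higher and 4 lower, and pluripotent markers 0 of 6 called. Endothelial (5) and surface ectoderm (5) markers had 1 higher and 1 lower each, and notochord and node markers (5) 2 higher and 1 lower. Their part in the members' change was not tested.

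The library label is no treatment, yet levels of many members differed with it. At 120 h, lines were not balanced over labels. InsDel8to10 and InvDel7to10 had ISML_second libraries only, and InsDel5to10, InsDel7to10 and InvClone2 had ISML_third libraries only. A comparison of all libraries at 120 h by label thus mixes label with line. Among the 18 libraries at 120 h, Epcam was at 39.6 to 53.4 CPM (median 41.6) in the 5 ISML_second libraries and at 4.62 to 38.8 CPM in the other 13, with no overlap. Cldn7 (8.996 to 13.6 against 0.0953 to 7.30 CPM), Prss8 (14.9 to 20.4 against 0.762 to 13.98 CPM), St14 (17.98 to 23.8 against 5.31 to 17.1 CPM), Spint2 (32.0 to 43.8 against 14.96 to 31.9 CPM) and Evpl (1.55 to 2.53 against 0.0477 to 1.53 CPM) also lay wholly above. Prss8 and St14 encode the membrane proteases prostasin and matriptase, and Spint2 an inhibitor of theirs. These 6 of 38 members (15.8%) compare with 5.52% of all genes tested that lay above. None of the 38 lay wholly below, against 3.82% of all genes.

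**Figure D3:**
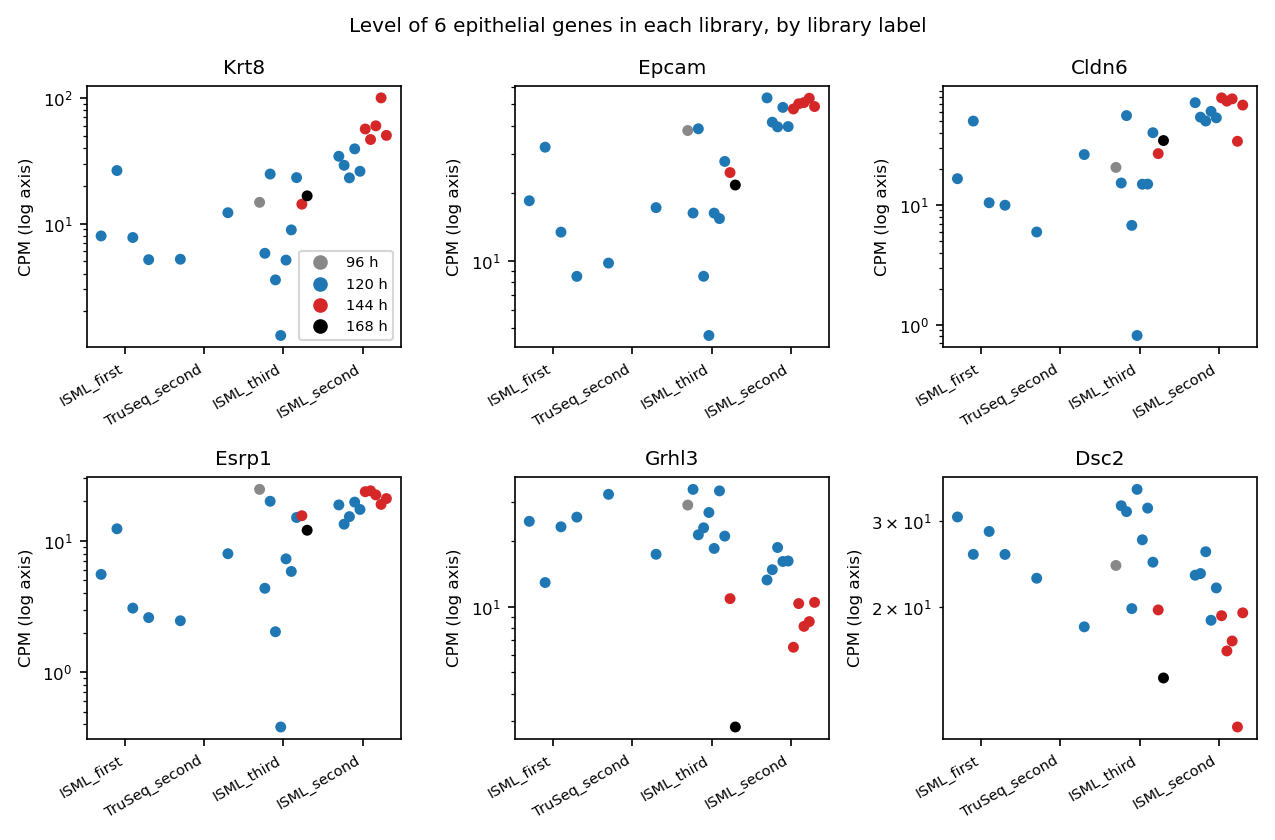
CPM (log axis) of 6 members in each of the 26 libraries, by library label, with colour for hours after aggregation. For Epcam the 5 ISML_second libraries at 120 h (39.6 to 53.4 CPM) lie above the other 13, and Grhl3 falls to 2.82 CPM at 168 h.

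Within Ins and Del, which hold both labels, ISML_second was compared with ISML_first in the fit of all libraries. edgeR called 2 members, both higher, where 2.3% of all genes were called and 1.9% called higher. Esrp2 was at 0.391, 0.997 and 2.25 CPM in Del and at 0.179, 0.268 and 1.74 CPM in Ins, the last of each being ISML_second (2.27 ± 0.50, adjusted p = 0.0314). Spint2 was at 22.3, 24.7 and 43.8 CPM in Del and at 19.7, 21.2 and 32.0 CPM in Ins (0.77 ± 0.16, edgeR, adjusted p = 0.0272). For both genes the ISML_second library was the highest in each line. Under that label, 21 of 38 members had an unadjusted p under 0.05, beside 19.2% of all genes, and 34 had a positive change, with a median of 1.37. The difference of the label effect between Ins and Del was tested as an interaction with edgeR and called 0 of 17769 genes, and 0 members had an unadjusted p under 0.05.

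For the label, DESeq2 called 8 members among 708 genes, and edgeR with no filter 21 members among 1802 genes. The calls of Esrp2 and Spint2 rested on single libraries, as 0 or 1 members were called without any 1 of the 6. Without the 3 libraries that stood apart, Esrp2 missed the threshold (edgeR, adjusted p = 0.0562). Marker levels differed between the labels too. At 120 h the summed level of 5 endothelial markers was 74.1 to 139 CPM in ISML_second and 4.71 to 90.5 CPM in the other libraries. For 16 endoderm markers it was 261 to 307 against 155 to 304 CPM, with 0 to 1 and 0 to 5 of them at 0. In the label fit edgeR called 2 of 16 endoderm markers, Hnf4a (4.71 ± 1.13, adjusted p = 0.0468) and Ttr (4.55 ± 0.86, adjusted p = 0.0224), both higher. These 2 genes were near 0, with medians of 0.230 and 0.0845 CPM and at most 1.96 and 0.938 CPM over all libraries. The keratin Krt15 was called higher too (2.10 ± 0.45, edgeR, adjusted p = 0.0272), at a median of 0.452 CPM. Label, culture and cell makeup cannot be told apart here, nor can line where all libraries at 120 h are compared.

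Ins against Del asks what the inserted Ins(CBS5-10) segment changes. No member was called by edgeR at 120 h, where 0.00563% of all genes (1 gene) were called, and DESeq2 called 0 members. With the replicate number as a block edgeR called 0 members and 2 genes, and with no filter on low counts 13 members and 89 genes. At an unadjusted p under 0.05 there were 2 members, beside 1.06% of all genes. The change was negative for 33 of 38 members, with a median of -0.84. Epcam was at 18.5, 32.1 and 53.4 CPM in Del and at 13.4, 8.497 and 41.6 CPM in Ins, each Ins library below the Del library of the same number and the groups overlapping (-0.92 ± 0.41, edgeR, adjusted p = 1). Ocln, which encodes occludin, was at 5.01, 8.11 and 8.78 CPM in Del and at 3.93, 2.64 and 5.86 CPM in Ins (-0.85 ± 0.25, edgeR, unadjusted p = 0.0047, adjusted p = 1). For Krt8 each Del library lay above each Ins library of the same label, with Del at 7.98 and 26.5 and Ins at 7.76 and 5.17 CPM in ISML_first, and 34.4 against 29.1 CPM in ISML_second.

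InsDel7to10 against InsDel5to10 compares a partly with a fully removed segment, with 2 libraries each, all ISML_third. No member passed the threshold (lowest adjusted p = 0.152 with edgeR, for Dsp), where 0.253% of all genes were called. At an unadjusted p under 0.05 there were 23 members of 38, beside 10.7% of all genes. DESeq2 called 9 members and 290 genes, and edgeR with no filter on low counts 23 members and 957 genes. The fitted change was negative for 34 members with a median of -1.86, beside 0.00 for all genes. By role the median was -3.06 over keratins, -3.16 over regulators, -3.05 over polarity and sorting genes, -2.26 over adhesion genes, -1.38 over desmosomal genes, -1.34 over tight junction genes and -0.96 over proteases and inhibitors. The basal anchor genes went apart, with Itgb4 at -0.64 and Lad1 at 0.64. Dsp was at 110.5 and 221 CPM in InsDel5to10 and at 52.3 and 70.6 CPM in InsDel7to10, without overlap (-1.43 ± 0.34, edgeR). Cldn6 was at 15.3 and 55.9 against 6.75 and 0.810 CPM (-3.26 ± 1.09, edgeR, adjusted p = 0.329). Cdh1 was at 20.8 and 76.7 against 11.96 and 6.05 CPM (-2.44 ± 0.79, edgeR, adjusted p = 0.304). Grhl2 was at 1.25 and 5.75 against 0.713 and 0.0953 CPM (-3.15 ± 1.011, edgeR, adjusted p = 0.301). In all 4 genes the InsDel7to10 libraries were the lower ones, and InsDel5to10 replicate 2 was 2.00 to 4.59 times its replicate 1. Lad1, Llgl2, Marveld3 and Jup had positive changes, of 0.64, 0.41, 0.42 and 0.20.

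Other cell type markers differed between these libraries as well. Summed pluripotent markers were at 1.10 and 48.4 CPM in InsDel5to10 and at 0.477 and 2.74 CPM in InsDel7to10. In the same order, 5 and 0 of the 9 were at 0 in the former, 7 and 1 in the latter. Summed endoderm markers were at 255 and 304 against 155 and 208 CPM, and summed presomitic and somitic markers at 572 and 676 against 992 and 1233 CPM. Their part in the members' difference was not tested.

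**Figure D4:**
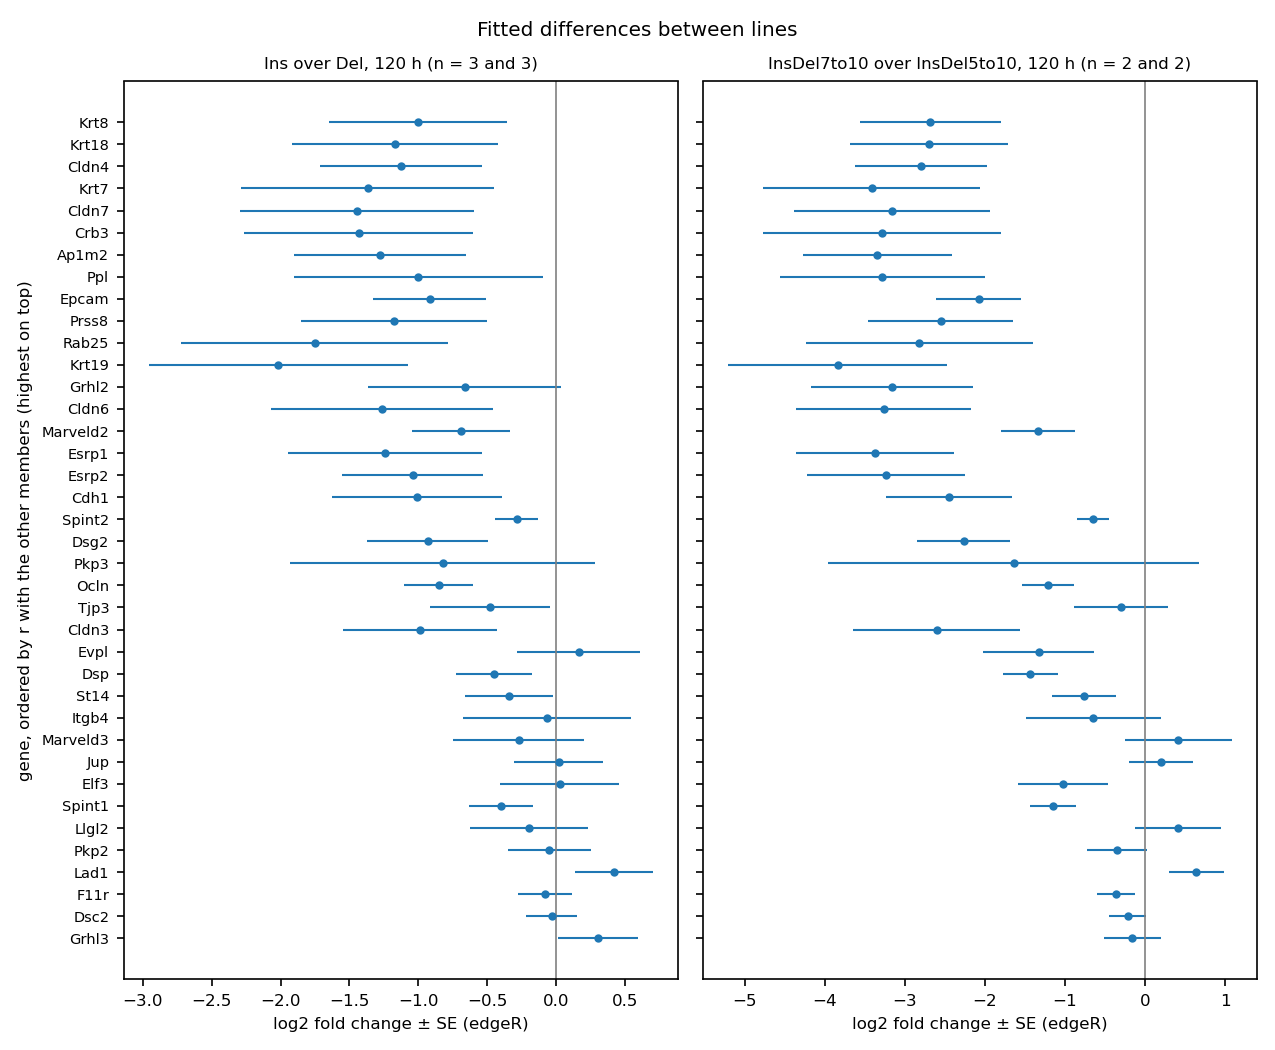
Log2 fold change ± SE (edgeR) of the 38 members, ordered by r with the other members, for Ins over Del (left, 3 and 3 libraries) and InsDel7to10 over InsDel5to10 (right, 2 and 2 libraries). Medians are -0.84 and -1.86, the genes at the bottom lie near 0, and no gene passed the adjusted threshold in either comparison. The r that sets the order was computed with these libraries included, so order and change are not independent.

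InvClone1 against Ins asks what inverting the segment changes, and it shares the Ins libraries with the comparison of Ins and Del. At 120 h these groups share the label ISML_second only, so the fitted difference leans on that label and on the label terms of the model. edgeR called 0 members at 120 h, where 0.0169% of all genes were called, and 0 members had an unadjusted p under 0.05, as against 0.951% of all genes. DESeq2 called 0 members as well. Krt18 was at 7.34, 3.98, 10.4 and 39.6 CPM in InvClone1 and at 5.11, 4.32 and 28.8 CPM in Ins, overlapping (1.08 ± 1.015, edgeR, adjusted p = 1). The last value of each is the ISML_second library, and the earlier values carry labels that the groups do not share. The median change was 0.27 and turned to -0.36 with the replicate number as a block.

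InvClone2 against InsDel5to10, which shares the InsDel5to10 libraries with the comparison of the partial deletion, also gave 0 members by edgeR, where 0.152% of all genes were called. DESeq2 called 0 members, and edgeR with no filter 1 member and 383 genes. At an unadjusted p under 0.05 there was 1 member, Lad1, beside 6.53% of all genes. Lad1 was at 17.7 and 16.7 CPM in InvClone2 and 6.66 and 8.53 CPM in InsDel5to10, without overlap (1.179 ± 0.35, edgeR, adjusted p = 0.645). Esrp1 was at 5.85 and 15.1 against 4.35 and 20.1 CPM (-0.22 ± 0.82, edgeR, adjusted p = 0.968). The median change of -0.17 became 0.98 without InsDel5to10 replicate 2 and 0.23 without InvClone2 replicate 1.

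The ISML_third libraries of InvClone1 give a series of 1 library a stage, with no test. From 96 h to 120 h 30 of 38 members were lower, from 120 h to 144 h 32 were higher, and from 144 h to 168 h 23 were higher. The same counts were not made over all genes. Both the fall and the rise pass through replicate 1 at 120 h, which was the library least like the others of that stage. Whether they belong to the stage or to that library was not tested. Krt19 was at 1.14, 1.15, 8.07 and 18.5 CPM at 96, 120, 144 and 168 h. Cldn4 was at 4.42, 3.56, 11.2 and 15.6 CPM. These were lowest at the first or second stage and highest at the last.

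Cdh1 took another course, from 177 CPM at 96 h to 30.4, 45.6 and 35.2 CPM. Its partner in adhesion Epcam was at 38.2, 16.3, 24.8 and 21.8 CPM and Grhl2 at 6.25, 2.31, 3.77 and 4.35 CPM, with the 96 h library highest for all 3. Grhl3 was lower at each stage, at 29.1, 18.4, 10.9 and 2.82 CPM, and so was Lad1, at 28.6, 6.56, 2.84 and 2.25 CPM. F11r was at 158, 91.9, 92.3 and 36.2 CPM. At 96 h the summed pluripotent markers were at 95.8 CPM, against 7.07 CPM at 168 h, and their part in these values was not tested.

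**Figure D5:**
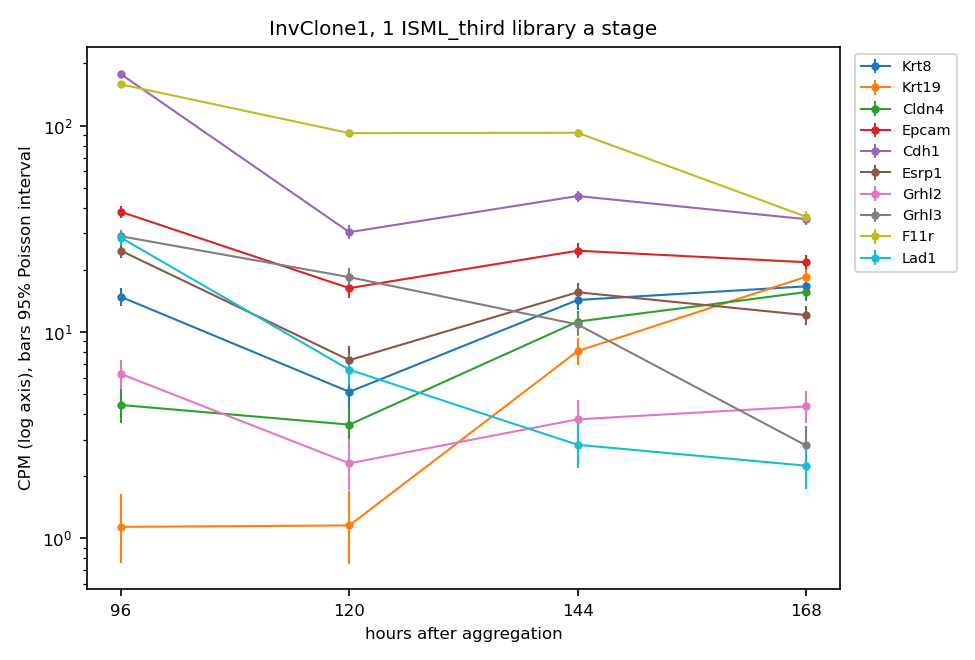
CPM (log axis) of 10 members in the 4 ISML_third libraries of InvClone1 against hours after aggregation, with bars for the exact 95% Poisson interval, which covers counting error only. Krt19 goes from 1.14 to 18.5 CPM between 96 and 168 h while Grhl3 goes from 29.1 to 2.82 CPM.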

How the data were processed

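The deposited gene table holds whole-number read counts, not normalized, for the 26 libraries, and the authors deposited FPKM values beside it. Per the submitters' processing notes, the tools included cutadapt (version 1.18), STAR (2.7.10a) and Cufflinks (2.2.1), and the build was mm10. No source used here gives the strand setting of the counting, so genes that overlap are uncertain. Of the table columns, 8 (4 per table) belong to no sample listed and were left aside.

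The main test was the quasi-likelihood F-test of edgeR 4.0.16 (R 4.3.3) on counts, with TMM normalization, a minimum count of 10 and a Benjamini-Hochberg threshold of 0.05. For lines and label, a single model of 26 libraries held group and label (17769 genes, 8 residual degrees of freedom). For stage, the model held line and stage over 10 ISML_second libraries (15011 genes, 4 residual degrees of freedom). Groups of 1 library borrow the spread of the others. DESeq2 1.42.0 and further alternatives were also run. CPM used TMM-scaled library sizes, log2 CPM a prior count of 2. The code was tested on simulated data.

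Same-numbered Ins and Del libraries deviated together from their group means (correlations of 0.51, 0.26 and 0.64). The main test did not pair them, and the replicate number entered as a block only in an alternative fit. Replicate 3 is the ISML_second library of both lines, and Ins replicate 2 correlated as well with Del replicate 1 (0.30).

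Members and gene lists were chosen with earlier results of these data known. Named were 8 members followed through each comparison (Krt8, Krt18, Cldn6, Epcam, Cdh1, Dsp, Grhl2, Esrp1, where shown), members past the threshold, the 5 highest and 8 lowest by r, and the 5 highest and lowest by FPKM. Ocln, Lad1, members wholly above in ISML_second and the promoter examples were chosen after their values were seen. Poisson intervals and the limit of 3 counts for a 0 describe counting error alone, because PCR copies of a molecule are counted as separate reads.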

Additional observations from a re-analysis of the deposited data

Results flagged for a closer look

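Among the 4 libraries of InvClone1 at 120 h, 4 of 38 members had 1 library far from the others (Dixon's 95% critical value for 4 libraries, 0.829). By the same measure 8.39% of all 17769 genes did, beside 10.5% of the members, and chance gives about 1 in 20. These libraries carry 3 labels and the members are correlated, so the 4 genes are not independent. In replicate 4, the ISML_second library, Grhl2 was at 7.761 CPM (next 2.309), Rab25 at 3.398 CPM (next 0.415) and Ap1m2 at 5.599 CPM (next 1.524). In replicate 2, a TruSeq_second library, Grhl3 was at 32.54 CPM (next 18.42).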

How the results depend on the processing

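Directions of the member medians held in Ins against Del, InsDel7to10 against InsDel5to10, stage and label under the alternatives run, and reversed in places in the InvClone1 and InvClone2 comparisons. The cause of each change was not tested. DESeq2 called 2 genes in Ins against Del, 290 genes and 9 members in InsDel7to10 against InsDel5to10, 50 genes in InvClone2 against InsDel5to10, and 708 genes and 8 members for the label. With no filter edgeR called 89 genes and 13 members in Ins against Del, 9 genes in InvClone1 against Ins, 957 genes and 23 members in InsDel7to10 against InsDel5to10, 383 genes and 1 member in InvClone2 against InsDel5to10, and 1802 genes and 21 members for the label. With no library term 7 genes were called in InsDel7to10 against InsDel5to10 and 6 in InvClone2 against InsDel5to10. In fits of the compared libraries alone there were 0 genes in InvClone1 against Ins (Dsp -0.17), 4 in InsDel7to10 against InsDel5to10, and 1963 genes and 8 members for the label. Without the 3 libraries that stood apart, chosen after seeing the data, the label had 1 member.

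The replicate block gave 2 genes in Ins against Del, 3 in InsDel7to10 against InsDel5to10, and 932 genes and 3 members in InvClone2 against InsDel5to10, whose numbers are shared by 2 pairs only. In InvClone1 against Ins, deviations of same-numbered libraries from their group means had correlations of 0.17, 0.40 and 0.06. The highest correlation, 0.47, was between InvClone1 replicate 4 and Ins replicate 3, which differ in number. In this comparison the block gave 0 genes, a member median of -0.36, and Krt8 at -0.62, Krt18 at -0.37, Cldn6 at -0.43 and Epcam at -0.26. Same-numbered InsDel7to10 and InsDel5to10 libraries deviated oppositely (r = -0.15), and the crossed replicate block, added after seeing the data, gave 4 genes. The block changed no other call.

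Leaving out 1 library (or 1 line for stage) at a time gave 3 to 303 genes in InvClone1 against Ins (303 without InvClone1 replicate 4), with a member median of -0.0019 to 0.83, Cldn6 at -1.15 to 1.09 and Esrp1 at -0.25 to 1.44. It gave 3 to 939 genes in InsDel7to10 against InsDel5to10 (939 without InsDel7to10 replicate 2), with a median of -2.54 to -0.9996. In InvClone2 against InsDel5to10 it gave 3 to 9 genes, a median of -0.53 to 0.98, Krt8 at -0.79 to 1.47, Krt18 at -1.32 to 1.17, Cldn6 at -1.25 to 0.86, Epcam at -0.85 to 0.40, Cdh1 at -1.34 to 0.75, Dsp at -0.72 to 0.28, Grhl2 at -2.35 to 0.94 and Esrp1 at -1.07 to 1.27. For the label it gave 39 to 260 genes and 0 to 1 members, and for stage 1365 to 4831 genes and 6 to 20 members. Where a group is left with 1 library, that library is assumed to vary like the other groups. Itgb4 and Pkp3, with at most 31 counts in a library, are limited by depth.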
